A study of Mus musculus with 30 samples.

Results

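All 15 kidney libraries of the study came from mice treated to induce reprogramming factors, yet they differed widely in how much Pou5f1 RNA they held. The gene Pou5f1 encodes OCT4, one of the 4 factors of the inducible cassette (named i4F). The classes were selected on the deposited Pou5f1 value alone: a library was placed in the high class where that value was at least 1 FPKM (fragments per kilobase of transcript, relative to the mapped reads of the library, the unit the authors deposited) and in the low class where it was under 1 FPKM. That rule put 9 kidney libraries in the high class and 6 in the low class, of 15 kidney libraries and of 30 libraries in the whole series. The classes thus rest on a measured level and not on a treatment given to some of the mice. The level of every other gene was then compared between the classes, and against the Pou5f1 level itself, with genotype in the fit.

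The kidneys came from 3 genotypes on a C57BL/6 background, with 5 libraries each. The i4F mice carry the inducible cassette alone, the i4F Ink4a/Arf KO mice also lack the Ink4a/Arf (Cdkn2a) locus, and the i4F p53 KO mice also lack p53 (gene Trp53). All of them drank water with 0.2 mg/ml doxycycline over 7 days, so neither a kidney without doxycycline nor one without the cassette is among the libraries compared here. The labels used here give neither the age of the mice nor the promoter or cell type that limits the cassette. They do not say whether libraries of one group shared a litter or a preparation day, so p-values measure the spread between these libraries.

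OCT4, SOX2, KLF4 and MYC are transcription factors that together can return a differentiated cell to a pluripotent state, in which it can form any tissue. In a living animal their induction meets a mixed organ: the kidney is made mostly of tubule cells, which take back salt, sugar and amino acids from the filtrate, with podocytes, vessels and a few fibroblasts and leukocytes between them. An injured tubule cell loses its transporters, gains keratins and secreted proteins that are little made in healthy tubules, and may re-enter the cell cycle. For these factors FPKM do not separate RNA of the cassette from RNA of the endogenous genes.

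Pou5f1 (chr17:35506018-35510772 on GRCm38) ran from 1.05 to 15.7 FPKM in the high class, with a median of 4.87 FPKM, and from listed at 0 to 0.650 FPKM in the low class, with a median of 0.0963 FPKM. In the i4F kidneys, replicates 1 to 5 measured 0.151, 0, 0.0417, 5.40 and 1.25 FPKM. In the i4F Ink4a/Arf KO kidneys they measured 0.492, 2.55, 4.87, 0 and 1.05 FPKM, and in the i4F p53 KO kidneys 15.7, 0.650, 3.48, 8.86 and 4.88 FPKM. The high class therefore held 2 i4F, 3 i4F Ink4a/Arf KO and 4 i4F p53 KO libraries, and the low class 3, 2 and 1. Nearest to the threshold were i4F Ink4a/Arf KO replicate 5 at 1.05 FPKM and i4F replicate 5 at 1.25 FPKM above it, and i4F p53 KO replicate 2 at 0.650 FPKM and i4F Ink4a/Arf KO replicate 1 at 0.492 FPKM below it. These values chose the classes and are given as a description.

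The other factors of the cassette had higher medians in the high class, with unequal separation. Myc ran from 5.03 to 37.7 FPKM in the high class and from 1.59 to 3.97 FPKM in the low class, with medians of 9.32 and 1.68 FPKM, and its classes did not overlap. Sox2 had medians of 1.95 and 0.0740 FPKM and Klf4 of 6.30 and 2.49 FPKM, and for both the highest low library lay above the lowest high library. Because all 4 factors share a cassette, no test is given for them. Nanog, a pluripotency gene outside the cassette, stayed between 0.0308 and 0.702 FPKM in all 15 kidneys and was too low to be tested.

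**Figure D1:**
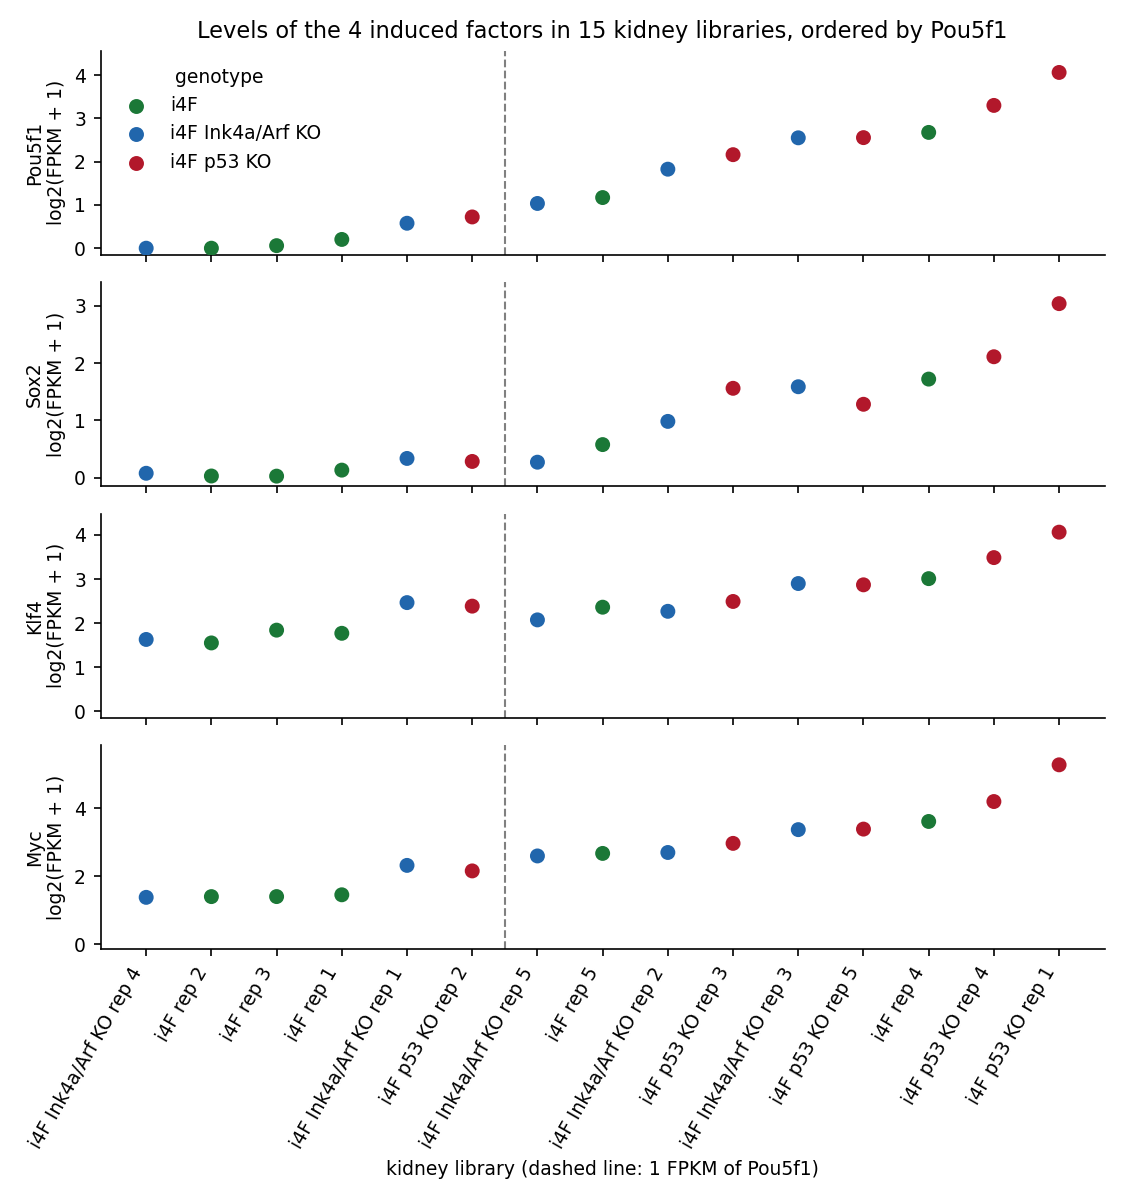
log2(FPKM + 1) of Pou5f1, Sox2, Klf4 and Myc in each of the 15 kidney libraries, ordered by Pou5f1 and coloured by genotype, with a dashed line at 1 FPKM of Pou5f1 between the classes. Pou5f1 runs from 0 to 15.7 FPKM, and Myc separates the classes while Sox2 and Klf4 overlap.

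The libraries were kidney by their markers. The summed level of 61 proximal tubule genes, the main reabsorbing segment, ran from 15586 to 105196 FPKM, and none of these markers was listed at 0 in all libraries. Between 11539 and 12473 genes reached 1 FPKM in a library, and the labels state more than 24 M mapped reads for each sample. The depth of single genes is unknown, as no read counts entered the work. By Xist and Ddx3y 3 libraries were female: i4F replicates 4 and 5, which are the high libraries of that genotype, and i4F Ink4a/Arf KO replicate 1, a low one. Within i4F, sex and the Pou5f1 class therefore cannot be told apart. Clps, a pancreatic acinar enzyme cofactor, exceeded 100 FPKM in i4F replicate 5 and i4F p53 KO replicates 2, 3 and 4 and stayed under that in the other 11. The low kidney i4F Ink4a/Arf KO replicate 1 also stood apart in blood cell RNA, with the highest summed macrophage (2016 FPKM), lymphocyte (50.8 FPKM) and red blood cell (583 FPKM) markers.

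Kidneys with more Pou5f1 RNA had more RNA of genes for tubule injury, DNA replication and mitosis, and most genes of the proximal tubule and of mitochondrial respiration had small negative slopes. The relation was measured as the slope of log2(FPKM + 1) of a gene on log2(Pou5f1 FPKM + 1) across the 15 kidneys with genotype in the fit, so that a slope of 1 means equal rises on that scale. With limma and Benjamini-Hochberg adjustment, 591 of 12427 genes had a slope that differed from 0 at an adjusted p under 0.05, which is 4.76% of the genes tested. Of these 531 rose with Pou5f1 (4.27%) and 60 fell (0.483%). The median slope of all genes tested was 0.05, and 72.1% of slopes were above 0. The share of calls that rose, 89.8%, depended on scaling: it was 72.7% of 395 calls after median-of-ratios scaling (333 shared with the 591) and 78.8% of 401 calls after quantile normalization (338 shared). The count moved strongly with single libraries: leaving out i4F p53 KO replicate 1, the kidney with the most Pou5f1, left 54 genes, and leaving out i4F Ink4a/Arf KO replicate 1, a low library, gave 1878.

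Cut into 2 classes, the same libraries gave no called gene (0 of 12427, 0%). In that limma fit, 815 genes (6.56%) had an unadjusted p under 0.05, 652 higher and 163 lower in the high class, and the smallest adjusted p was 0.101, for Abp1. The values of 11 genes in all 9 high kidneys lay above those in all 6 low kidneys (0.0885% of genes tested), and 1 gene, Isca1, which serves iron-sulfur cluster assembly, lay below in all, which makes 12 genes without overlap (0.0966%). The 11 were Abp1, Krt20, Krt13, Itgb4, Aldh3a1, Spink2, Fetub, Fam83h, Krtcap3, Mcm7 and Gm10052. Of these Krt13, Aldh3a1 and Spink2 reached 1 FPKM in high kidneys only (9, 7 and 7 of them), so they passed the filter through the high class alone, and nothing is read from their lack of overlap. Krt20 and Itgb4 reached it in 9 high kidneys and 1 low one, and Fetub in 9 and 2, so these passed mainly through the high class. Their lack of overlap is a description. Both fits use the same 15 libraries, and the second keeps less of the measured level of Pou5f1.

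To show what lies in front of the genes that turn the results, 4 promoters are printed, each 300 bases from 250 bases before to 50 bases after the gene's start, from RefSeq on GRCm38.p6. Capitals mark short words known from the promoters of cell cycle or stress genes, searched on both strands: CCAAT (on the other strand ATTGG), bound by NF-Y; TTTGAA, the core of the element that DREAM and MuvB complexes hold at mitotic genes; TTTCCCGC or TTTGGCGC, words of the E2F type (GCGGGAAA is the first on the other strand); and TGANTCA, the word of AP-1. Cdc20 (chr4:118437294-118437593, minus strand), the activator of the anaphase-promoting complex, stands for the mitosis genes, with CCAAT 53 and 8 bases and TTTGAA 18 bases before the start.
Cdc20: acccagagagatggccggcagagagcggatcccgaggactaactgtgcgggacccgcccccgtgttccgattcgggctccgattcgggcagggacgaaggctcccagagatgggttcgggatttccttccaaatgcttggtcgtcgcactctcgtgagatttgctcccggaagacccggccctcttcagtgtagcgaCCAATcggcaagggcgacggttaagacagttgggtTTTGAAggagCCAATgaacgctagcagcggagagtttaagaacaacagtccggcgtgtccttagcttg
Uhrf1 (chr17:56303087-56303386, plus strand), which keeps DNA methylation through replication, had the smallest adjusted p of the S phase genes and holds CCAAT 30 and 2 bases before the first of its 2 listed starts, the second of which overlaps an ATTGG that begins behind the start.
Uhrf1: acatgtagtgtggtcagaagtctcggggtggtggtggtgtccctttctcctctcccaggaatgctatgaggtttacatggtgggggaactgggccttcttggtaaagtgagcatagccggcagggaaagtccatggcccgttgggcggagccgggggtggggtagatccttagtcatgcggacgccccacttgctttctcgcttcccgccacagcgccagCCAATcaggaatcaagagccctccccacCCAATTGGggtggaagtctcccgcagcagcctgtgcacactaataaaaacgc
Mcm7 (chr5:138171834-138172133, minus strand), a subunit of the replicative helicase, is the S phase gene whose classes did not overlap, and the promoter of its first listed start holds GCGGGAAA 165 bases and ATTGG 72 and 26 bases before the start and CCAAT behind it.
Mcm7: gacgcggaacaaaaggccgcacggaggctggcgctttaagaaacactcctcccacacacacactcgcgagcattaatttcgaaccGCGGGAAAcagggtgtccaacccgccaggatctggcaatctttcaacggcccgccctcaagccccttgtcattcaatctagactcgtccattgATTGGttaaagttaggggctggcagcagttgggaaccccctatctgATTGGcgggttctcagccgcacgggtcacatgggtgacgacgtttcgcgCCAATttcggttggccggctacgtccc
Sprr1a (chr3:92485832-92486131, minus strand), a protein of the cornified envelope of squamous cells, stands for the injury genes, with TGAGTCA 146 and 116 bases and CCAAT 26 bases before the start.
Sprr1a: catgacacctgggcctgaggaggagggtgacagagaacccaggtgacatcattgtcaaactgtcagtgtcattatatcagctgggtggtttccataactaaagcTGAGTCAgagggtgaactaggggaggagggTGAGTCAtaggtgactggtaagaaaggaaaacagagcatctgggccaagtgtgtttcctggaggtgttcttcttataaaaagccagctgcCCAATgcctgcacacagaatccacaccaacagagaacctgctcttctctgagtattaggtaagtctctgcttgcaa

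Over the lists these words differed in how often they occurred. RefSeq promoters were found for 9796 of the 12427 genes tested, and a gene with several counts if any of them holds the word. The called genes of the injury, mitosis and S phase lists each include 1 that passed the filter through high kidneys alone. TTTGAA was in the promoters of 11 of 17 called mitosis genes (64.7%), against 3 of 18 called S phase genes (16.7%), 1 of 20 called injury genes (5%) and 14% of all. An E2F-type word was in 7 of 18 called S phase genes (38.9%), in no called mitosis or injury gene, and in 3.2% of all. CCAAT was in 12 of 17 mitosis genes (70.6%) and 13 of 18 S phase genes (72.2%), against 6 of 20 injury genes (30%) and 42.5% of all. TGANTCA was in 6 of 20 injury genes (30%), in none of the mitosis or S phase genes, and in 6.32% of all. The octamer ATGCAAAT is the word that OCT4 shares with other POU factors. It was in 14 of 413 promoters of genes that rose with Pou5f1 (3.39%) and in 1.55% of all. By list the octamer was in 3 of 20 called injury genes (15%), 0 of 17 mitosis genes and 0 of 18 S phase genes. The MYC word CACGTG was in 12.6% of genes that rose with Pou5f1 and 11.9% of all. A word in a promoter is a description of its letters, not a measured site.

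The gene with the smallest adjusted p was Abp1, the older symbol of Aoc1 (chr6:48872896-48909188), which encodes diamine oxidase, the enzyme that degrades histamine and polyamines. Abp1 measured 4.90, 8.91 and 18.6 FPKM (lowest, median and highest) in the 9 high kidneys and 1.46, 2.32 and 2.58 FPKM in the 6 low ones. The classes did not overlap, and its slope was 0.78 ± 0.07 (SE, n = 15; limma adjusted p = 0.000174). Its partial correlation with Pou5f1 after removal of genotype means, 0.949 over 15 libraries, was the largest of the genes tested. That value is a description, since gene and Pou5f1 share libraries and their depth. Without the 2 libraries farthest from their genotype mean of Pou5f1 it was 0.93. The call was kept in 31 of 33 other settings tried, and lost in the 5 i4F p53 KO libraries alone and in males without high Clps.

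Other genes closest to Pou5f1 by the same measure were of mixed function. Plp2, a small membrane protein, ran from 30.1 to 118 FPKM in the high class and 18.4 to 38.1 FPKM in the low class, with medians of 59.9 and 24.8 FPKM and some overlap, and rose with a slope of 0.58 ± 0.06 (limma adjusted p = 0.000735). Ttc12, which serves the assembly of dynein arms of cilia, had a partial correlation of 0.941 but a small slope of 0.16 (limma adjusted p = 0.0113), and Tubgcp2, a part of the gamma-tubulin ring, had 0.914 and 0.16 (limma adjusted p = 0.0122). Lig1 and Cdc45, the ligase and a helicase factor of DNA replication, had slopes of 0.45 ± 0.06 and 0.29 ± 0.04 (limma adjusted p = 0.00256 and 0.00385). Pdlim7, a scaffold of actin fibres, had a slope of 0.46 ± 0.06 (limma adjusted p = 0.00242). Gm10052 (chr9:123689233-123690192) is annotated as a processed pseudogene, so its reads could belong to a parent gene, and its value of 0.30 ± 0.04 is uncertain for that reason. At the negative end Lpin1, a phosphatidate phosphatase, had a partial correlation of -0.902.

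Of the kidney tubule injury genes tested 25 of 42 rose, beside 20 of 22 in mitosis, 21 of 24 in S phase and 4.27% of all genes. In each of these lists 1 called member reached the filter level in no low kidney. It was tested through the high class alone, so its call, though counted, is not read as support. Of 46 genes listed, 42 passed the filter of 1 FPKM in 5 libraries, of which none fell and 17 did not pass the test. The median slope of the tested members was 0.46, beside 0.05 for all genes, and 41 of 42 slopes were positive. With no filter on low values 22 of 46 rose and 45 slopes were positive. In the fit of 2 classes 18 of the 42 had an unadjusted p under 0.05, and none passed after adjustment. RNA of a tissue cannot tell apart more cells of a kind from more RNA in each cell, here and for all lists below.

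Several named members of the injury list encode keratins or cornified envelope proteins. Krt20 (chr11:99428403-99438150), a keratin of intestinal and bladder epithelium that injured tubules also make, measured 1.83, 4.77 and 24.0 FPKM (lowest, median, highest) in the high class and 0.0523, 0.526 and 1.12 FPKM in the low class. All high kidneys lay above all low ones, and the slope was 1.10 ± 0.12 (limma adjusted p = 0.000735). Krt20 reached 1 FPKM in 9 high kidneys and 1 low one, so it passed the filter mainly through the high class, and the lack of overlap is a description. Krt8 and Krt19, keratins of simple epithelia, had slopes of 0.45 ± 0.07 and 1.00 ± 0.24 (limma adjusted p = 0.00705 and 0.0329), and the call of Krt19 was lost in 14 of 33 other settings. Sprr1a measured 1.69, 24.9 and 92.9 FPKM in the high class, and from listed at 0 to 3.16 FPKM in the low class. Its classes overlapped in a narrow range, and its slope of 1.80 ± 0.28 was the steepest of the list (limma adjusted p = 0.00705). Sprr2f, of the same family, was listed at 0 in libraries of both classes and reached 52.5 FPKM in the high class and 0.199 FPKM in the low class. It passed the filter through 5 high kidneys and no low one, so no test is given for it.

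Secreted injury proteins rose as well. Lcn2 (chr2:32384633-32388252), the iron-siderophore carrier NGAL used as a urine marker of tubule damage, measured 15.2, 42.7 and 561 FPKM in the high class and 1.67, 6.52 and 29.2 FPKM in the low class. The classes overlapped, and the slope was 1.40 ± 0.25 (limma adjusted p = 0.0122). Spp1, osteopontin, had medians of 1774 and 583 FPKM and a slope of 1.01 ± 0.18 (limma adjusted p = 0.0122). Clu, the chaperone clusterin, ran from 100.1 to 1688 FPKM in the high class and only from 98.4 to 143 FPKM in the low class (slope 0.88 ± 0.13, limma adjusted p = 0.00517). Fgg, a fibrinogen chain, had medians of 71.4 and 11.1 FPKM and a slope of 0.96 ± 0.20 (limma adjusted p = 0.0222), and S100a6, a calcium-binding protein, had a slope of 0.73 ± 0.12 (limma adjusted p = 0.00705).

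Havcr1 (chr11:46735080-46779578), the receptor KIM-1 and the best known marker of injured proximal tubules, did not pass the test. It measured 0.791, 10.7 and 422 FPKM in the high class and 0.403, 0.961 and 5.72 FPKM in the low class, with a slope of 1.51 ± 0.42 (limma adjusted p = 0.0562). Its slope was 0.14 within i4F, 2.42 within i4F Ink4a/Arf KO and 2.05 within i4F p53 KO. Hmox1, the stress-induced heme oxygenase, was the member with a negative slope, -0.03 (limma adjusted p = 0.841); it and the genes Vim and Vcam1, with slopes of 0.24 and 0.09 (limma adjusted p = 0.203 and 0.685), are named here after their values were seen.

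**Figure D2:**
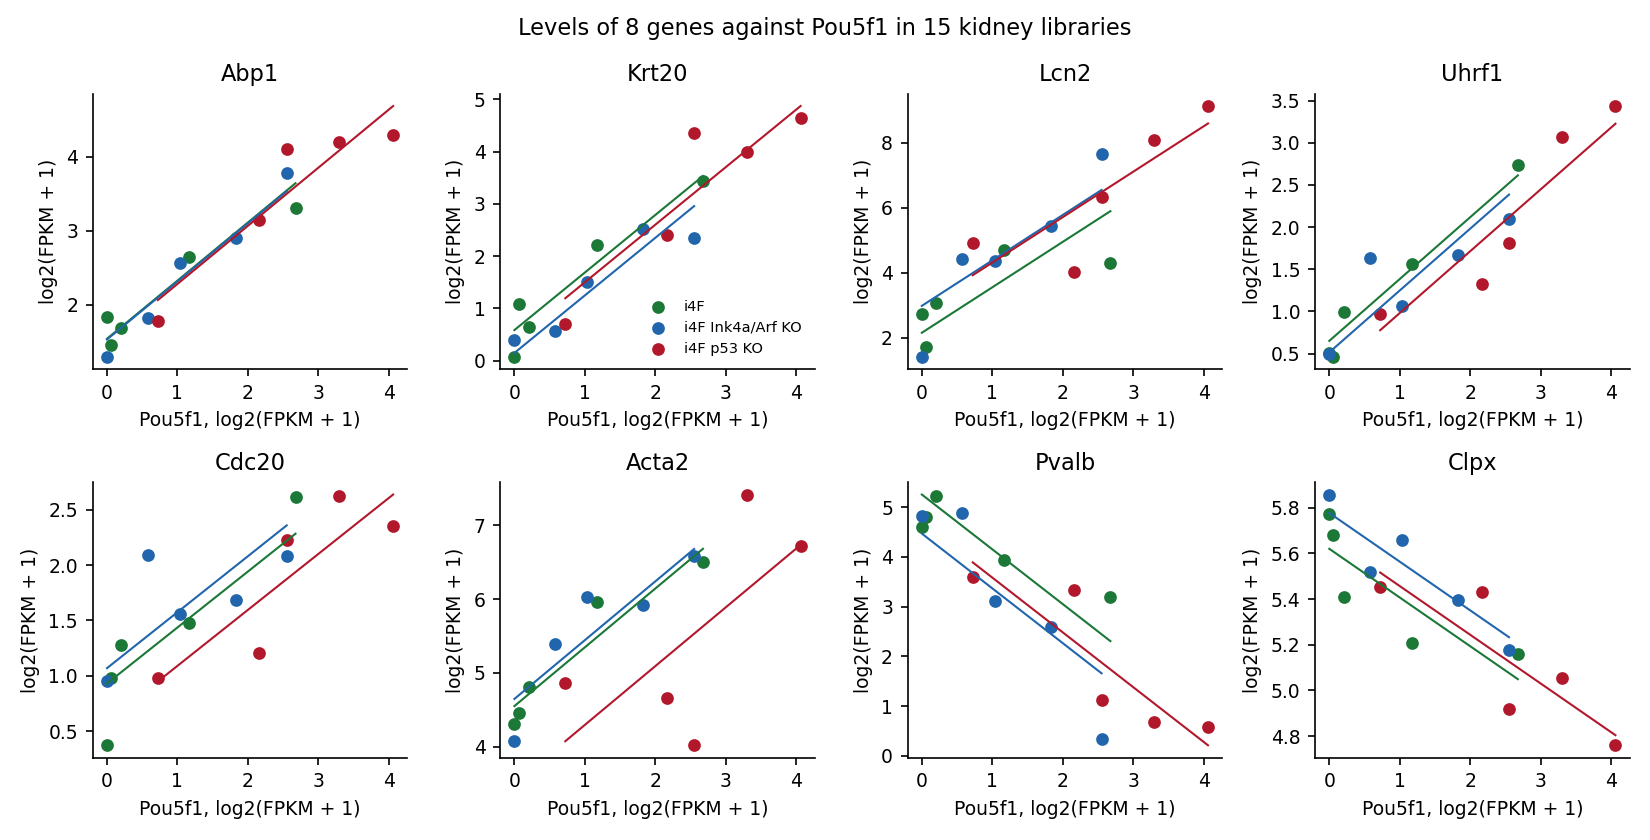
log2(FPKM + 1) of 8 genes against log2(Pou5f1 FPKM + 1) in the 15 kidney libraries, coloured by genotype; lines have the common slope of the fit and pass through the means of each genotype. Abp1, Krt20, Lcn2, Uhrf1, Cdc20 and Acta2 rise (slopes 0.78, 1.10, 1.40, 0.73, 0.50 and 0.80), and Pvalb and Clpx fall (-1.10 and -0.21).

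Genes of DNA replication and S phase rose in most tested members. Of 28 listed genes 24 were tested, 21 rose, none fell, and the median slope was 0.29 (0.05 for all genes). With no filter 22 of 28 rose, with a median of 0.28. Uhrf1 measured 1.10, 2.52 and 9.82 FPKM in the high class and 0.378, 0.689 and 2.11 FPKM in the low class. Its classes overlapped, and the slope was 0.73 ± 0.08 (limma adjusted p = 0.00101). Mcm7 measured 8.01, 8.80 and 16.4 FPKM against 6.90, 7.57 and 7.87 FPKM, a small step without overlap (slope 0.27 ± 0.05, limma adjusted p = 0.0106). Chaf1a, which places histones on new DNA, passed the filter through 6 high kidneys and no low one, so no test is given for it, though the 21 include it. Among the 3 members that did not pass, Mcm10 and Tyms had slopes of 0.07 and 0.12 (limma adjusted p = 0.353 and 0.211). The other had the only negative slope of the 24, -0.14, with an unadjusted limma p under 0.05.

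Mitosis genes were low in all kidneys, which bears on how they were counted. Only 22 of 30 listed genes passed the filter, in part through the high libraries, and 20 of these rose, with a median slope of 0.36. With no filter, 23 of 30 rose and all 30 slopes were positive, with a median of 0.31. Cdc20 measured 1.30, 3.23 and 5.17 FPKM in the high class and 0.294, 0.973 and 3.25 FPKM in the low class, with overlap (slope 0.50 ± 0.09, limma adjusted p = 0.0137). Plk1, a kinase of mitotic entry and spindle assembly, had medians of 1.72 and 0.572 FPKM (slope 0.40 ± 0.07, limma adjusted p = 0.0122). Anln, an actin-binding protein of the cleavage furrow, had medians of 1.01 and 0.279 FPKM. It passed the filter through 5 high kidneys and no low one, so no test is given for it, though the 20 include it. Hmmr and Kif23, the tested members that did not pass, had slopes of 0.24 and 0.28 (limma adjusted p = 0.0521 and 0.0576).

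The slopes of the 3 lists were measured within each genotype too, where the libraries are separate. Within i4F the high libraries, replicates 4 and 5, were also its females, so sex and Pou5f1 cannot be told apart in its slopes. Injury genes had positive slopes in 40 of 42 members within i4F, 39 within i4F Ink4a/Arf KO and 41 within i4F p53 KO, with medians of 0.43, 0.46 and 0.50. Mitosis genes were positive in all 22 tested members in each genotype, with medians of 0.50, 0.19 and 0.34. S phase genes were positive in 22, 22 and 23 of 24, with medians of 0.32, 0.21 and 0.32. Over all genes 69.8%, 67.6% and 68.2% of slopes were positive, with medians of 0.06, 0.04 and 0.05. Counts of calls were less stable than these directions. Without i4F p53 KO replicate 1, 8 of 41 injury, 5 of 16 mitosis and 3 of 24 S phase genes were called, and without i4F replicate 4 the counts were 16 of 41, 0 of 16 and 5 of 24. Without i4F Ink4a/Arf KO replicate 4 they were 10 of 42, 7 of 22 and 10 of 24. Without the 4 libraries above 100 FPKM of Clps, 8 of 41 injury, 0 of 16 mitosis and 5 of 24 S phase genes were called, and in the 12 males 20 of 41, 13 of 14 and 16 of 24. The median slope of each of the 3 lists stayed positive in all of these fits.

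**Figure D3:**
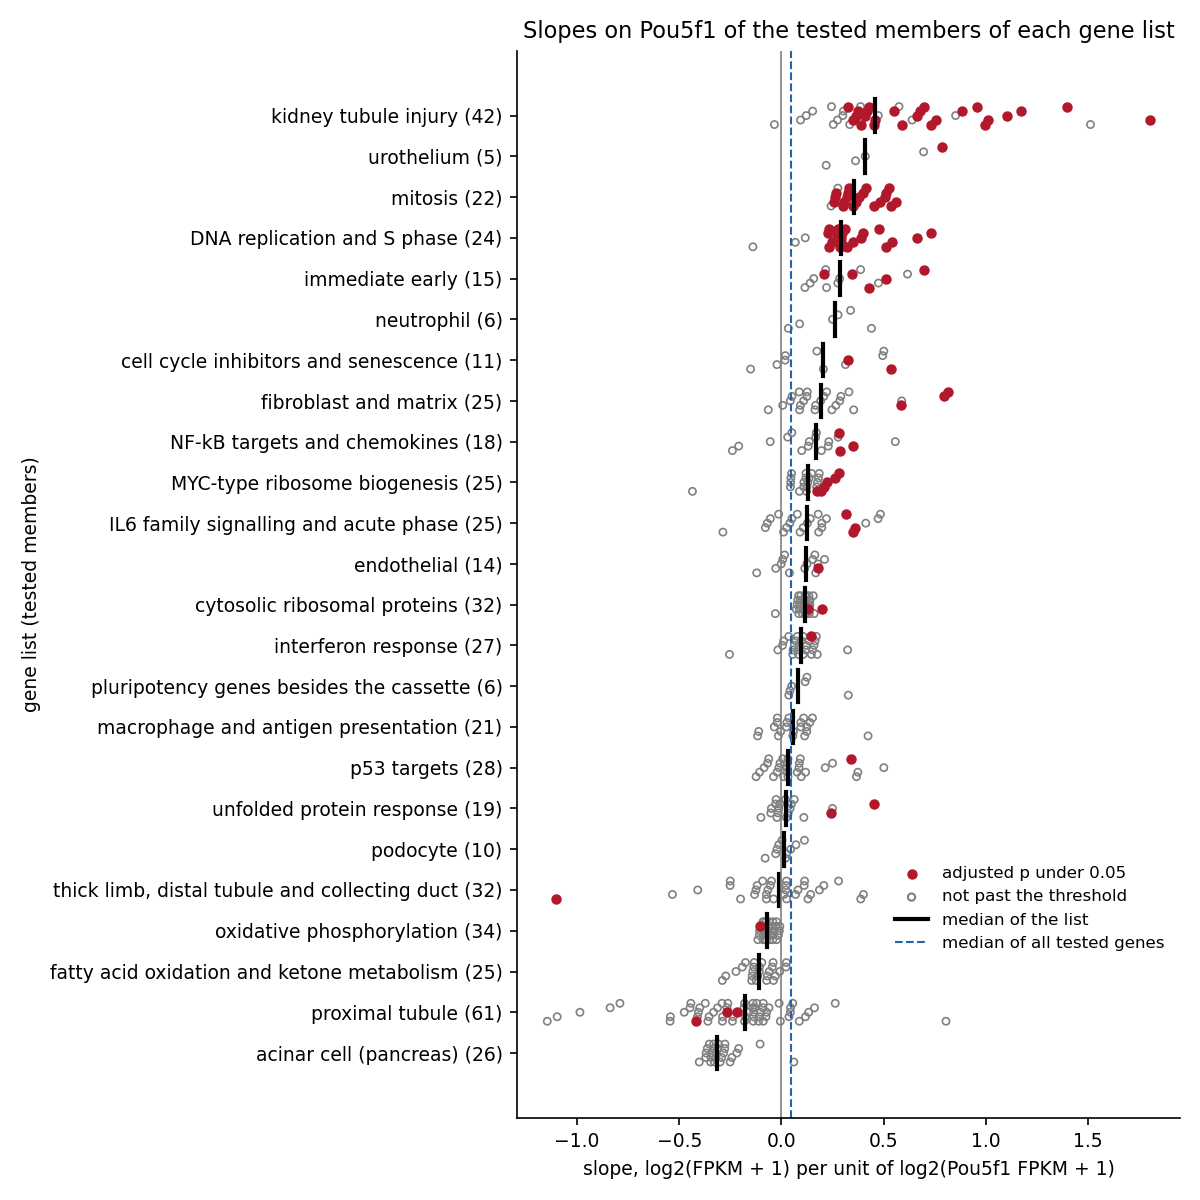
Slope on log2(Pou5f1 + 1) of each tested gene (points) in every list with at least 5 tested members, with the median of the list and the median of all genes (0.05) as lines; filled points passed an adjusted p under 0.05. Injury, mitosis and S phase lie to the right (medians 0.46, 0.36 and 0.29), and proximal tubule and oxidative phosphorylation to the left (-0.18 and -0.07).

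Most proximal tubule genes had negative slopes, with few calls. Of 61 tested members 3 fell, beside 0.483% of all genes, none rose, 51 had negative slopes and the median was -0.18. Within i4F, i4F Ink4a/Arf KO and i4F p53 KO the medians were -0.05, -0.11 and -0.28, and 26, 18 and 6 slopes were positive. Slc22a12, the urate transporter URAT1, measured 209, 377 and 726 FPKM in the high class and 342, 699 and 927 FPKM in the low class, with wide overlap (slope -0.42 ± 0.11, limma adjusted p = 0.042). Its call was lost in 21 of 33 other settings, among them 11 of the 15 that leave out 1 library. Fbp1, of gluconeogenesis, and Pdzk1, a scaffold of apical transporters, were the other calls, named after their values were seen, with slopes of -0.27 and -0.22 (limma adjusted p = 0.0398 and 0.042). Slc17a3 and Dpep1 had slopes of -0.44 and -0.35 and did not pass (limma adjusted p = 0.0617 and 0.0507). After quantile normalization none of the 61 was called lower, and after median-of-ratios scaling 4 were. The medians were then -0.16 and -0.25. The summed proximal tubule level had a median of 47860 FPKM in the high class and 75210 FPKM in the low class, and 63.6% of that sum was 1 androgen-regulated gene, Kap. These class medians pool the genotypes, whose own medians were 65427 FPKM in i4F, 76932 FPKM in i4F Ink4a/Arf KO and 26898 FPKM in i4F p53 KO.

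The steepest fall among distal nephron genes was in Pvalb (chr15:78191114-78206400), the calcium buffer parvalbumin of the early distal convoluted tubule. It measured 0.261, 5.00 and 14.3 FPKM in the high class and 11.2, 27.0 and 36.5 FPKM in the low class. The classes overlapped slightly, and the slope was -1.10 ± 0.18 (limma adjusted p = 0.00714). It was the only 1 of 32 tested genes of the thick limb, distal tubule and collecting duct that passed, beside 0.483% of all genes that fell. The median slope of these 32 was -0.01. Umod, which marks the thick limb and is named after its values were seen, had a slope of 0.13 (limma adjusted p = 0.526).

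Genes of mitochondrial metabolism had small and mostly negative slopes. Their counts stand beside 0.483% of all genes tested that fell. All 34 tested genes of oxidative phosphorylation had negative slopes, with a median of -0.07, and Uqcrfs1, the Rieske protein of complex III, was the one called (slope -0.10 ± 0.03, limma adjusted p = 0.0365), a call lost in 21 of 33 other settings. The size of these slopes depended on scaling, while the median stayed negative. After quantile normalization 7 of the 34 slopes were positive, with a median of -0.04 and 0 calls. After median-of-ratios scaling 0 were positive, with a median of -0.14 and 2 called lower. None of 25 genes of fatty acid oxidation and ketone metabolism passed in limma (11 lower at an unadjusted p under 0.05), 2 had positive slopes, and the median was -0.11. Outside the lists, Clpx (chr9:65294260-65330658), the unfoldase of a mitochondrial protease, measured 26.1, 35.2 and 49.4 FPKM in the high class and 41.4, 47.6 and 57.0 FPKM in the low class (slope -0.21 ± 0.04, limma adjusted p = 0.0122). Lpin1 ran from 8.83 to 13.1 FPKM and from 12.8 to 16.05 FPKM, so its classes overlapped only narrowly (slope -0.17 ± 0.03, limma adjusted p = 0.0114). Pecr, a peroxisomal reductase of fatty acid elongation, and Cml1 had slopes of -0.52 ± 0.11 and -0.43 ± 0.08 (limma adjusted p = 0.0236 and 0.0165).

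Contractile and matrix genes of fibroblasts rose in part. Acta2 (chr19:34241090-34255590) and Tagln, smooth muscle proteins that activated fibroblasts also make, had slopes of 0.80 ± 0.17 and 0.81 ± 0.17 (limma adjusted p = 0.0225 and 0.0215). Acta2 measured 15.2, 64.4 and 170 FPKM in the high class and 15.8, 23.9 and 40.8 FPKM in the low class, so the lowest kidney of all was a high one. Col1a1, a chain of fibrillar collagen, had a slope of 0.58 ± 0.14 (limma adjusted p = 0.035), a call lost in 15 of 33 other settings. These 3 were the calls among 25 tested members, beside 4.27% of all genes that rose, and 24 of the 25 had positive slopes, with a median of 0.19. The summed level of that list ran from 204 to 914 FPKM in the high class and from 251 to 634 FPKM in the low class.

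Of 5 tested urothelium markers 1 was called, Krt13, beside 4.27% of all genes tested that rose, and 4 did not pass. All 5 slopes were positive, with a median of 0.41, beside 0.05 for all genes. With Krt13 included, 4 of the 5 were higher at an unadjusted limma p under 0.05. Within i4F, i4F Ink4a/Arf KO and i4F p53 KO all 5 slopes were positive too, with medians of 0.32, 0.73 and 0.24. Krt13, a keratin of stratified epithelia and bladder, measured 1.17, 2.81 and 13.4 FPKM in the high class and 0.0553, 0.149 and 0.193 FPKM in the low class. Since no low kidney reached the filter of 1 FPKM, its call is not read as support. The summed level of the list ran from 2.79 to 63.1 FPKM in the high class and from 0.743 to 7.33 FPKM in the low class. Other epithelial genes, not on that list, were among those named by the rule. Itgb4, the hemidesmosome integrin of basal epithelial cells, measured 1.22, 2.60 and 5.62 against 0.548, 0.825 and 1.14 FPKM (slope 0.49 ± 0.07, limma adjusted p = 0.00478). It reached 1 FPKM in 9 high kidneys and 1 low one, so it passed the filter mainly through the high class. Aldh3a1, an aldehyde dehydrogenase of cornea and other surface epithelia, measured 0.865, 3.60 and 12.8 against 0.113, 0.259 and 0.349 FPKM, and it too reached 1 FPKM in high kidneys only, so no test is given for it. Elf3, an epithelial ETS factor, had medians of 15.5 and 7.39 FPKM (slope 0.46 ± 0.06, limma adjusted p = 0.00478). The summed level of the urothelium list overlapped between the classes, and the part of urothelial RNA in these values was not tested.

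Signalling lists gave smaller counts, to be set beside the 4.27% of all genes tested that rose. Among 15 tested immediate early genes 5 rose (Jun, Jund, Atf3, Klf6 and Maff), all 15 slopes were positive, and Atf3, a stress-induced transcription factor, had the steepest slope of those called, 0.70 (limma adjusted p = 0.0134). Stat3, Junb and Fosl2 rose among 25 tested genes of IL6 family signalling and acute phase, with slopes of 0.32, 0.36 and 0.35 (limma adjusted p = 0.0122, 0.0203 and 0.0185). Il6 itself reached at most 0.619 FPKM and was not tested. Nfkbiz, Nfkb2 and Birc3 rose among 18 NF-kB targets and chemokines. Atf4 and Asns, of the amino acid stress response, were the 2 calls among 19 genes of the unfolded protein response, with slopes of 0.24 and 0.45 (limma adjusted p = 0.0392 and 0.042). The call of Atf4 was lost in 20 of 33 other settings and that of Asns in 25 of 32. Of 27 interferon response genes Ifi35 alone passed, a share near that of all genes. The members here that lie outside the naming rule were chosen after their values were seen.

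The lists tied to MYC and to ribosomes had small slopes. Their counts stand beside 4.27% of all genes tested that rose. Of 25 ribosome biogenesis genes, a known target group of MYC, 6 rose (Npm1, Ncl, Nop56, Nop58, Cad and Ppan) with slopes between 0.17 and 0.28, and 24 of 25 slopes were positive, with a median of 0.13. After median-of-ratios scaling 2 were called and after quantile normalization 4. Of 32 cytosolic ribosomal protein genes Rpl3 and Rpl5 rose, none passed after median-of-ratios scaling, and 7 did after quantile normalization.

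For p53 targets the share of calls lay near that of all genes: 1 of 28 rose, beside 4.27% of all genes tested. Trp53 rose with a slope of 0.18 ± 0.04 (limma adjusted p = 0.0263); without genotype in the fit it was -0.13, and the call was lost in 15 of 33 other settings. Trp53 ran from 4.90 to 10.1 FPKM in i4F p53 KO, from 14.8 to 20.3 FPKM in i4F and from 13.9 to 17.9 FPKM in i4F Ink4a/Arf KO, as the genotype labels have it. The target that rose was Btg2 (0.34, limma adjusted p = 0.0269, lost in 13 of 33 other settings), and the median of the targets was 0.03. Cdkn1a, the cell cycle inhibitor p21, had a slope of 0.50 ± 0.16 and did not pass (limma adjusted p = 0.0831). Among the tested genes of cell cycle inhibitors and senescence Lmnb1 rose, with a slope of 0.33 (limma adjusted p = 0.0128). Lmnb1, a nuclear lamina gene, is known to fall in senescent cells. Cdkn2a reached at most 0.261 FPKM in any kidney and was not tested. None of 6 tested pluripotency genes outside the cassette was called by limma (1 at an unadjusted p under 0.05), and their median was 0.08.

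Few markers of other cell types passed, beside 4.27% of all genes tested that rose and 0.483% that fell. No gene of the 6 tested neutrophil markers passed in limma (2 at an unadjusted p under 0.05), although all 6 slopes were positive, with a median of 0.26, and their summed level ran from 47.8 to 184 FPKM in the high class and from 15.7 to 121 FPKM in the low class. S100a8, a granulocyte protein that made up 41.7% of that sum, had a slope of 0.34 (limma adjusted p = 0.109). The class ranges of the neutrophil sum pool the genotypes, whose medians were 23.1 FPKM in i4F, 57.7 FPKM in i4F Ink4a/Arf KO and 112 FPKM in i4F p53 KO. Macrophage (0 of 21), lymphocyte (0 of 3), podocyte (0 of 10), adipocyte (0 of 3) and red blood cell (0 of 3) markers gave no call, with 1 macrophage gene higher and 1 red blood cell gene lower at an unadjusted limma p under 0.05, and of 14 endothelial genes Egfl7 alone passed (0.18, limma adjusted p = 0.0464), a call lost in 26 of 33 other settings, among them 13 of the 15 that leave out 1 library. None of 26 tested acinar genes passed either, adjusted or not, and 25 of them had negative slopes, with a median of -0.32. In the fit of 2 classes the sign was the opposite, with 25 of 26 differences above 0 and a median of 0.45. Their summed level ran from 2139 to 4847 FPKM in the high class and from 2019 to 4661 FPKM in the low class, and 70.6% of it was Spink3, which kidney also makes. No marker of these lists was listed at 0 in all 15 libraries. The part of leukocyte or pancreatic RNA in the slopes was not tested beyond the fits with and without the libraries above 100 FPKM of Clps.

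**Figure D4:**
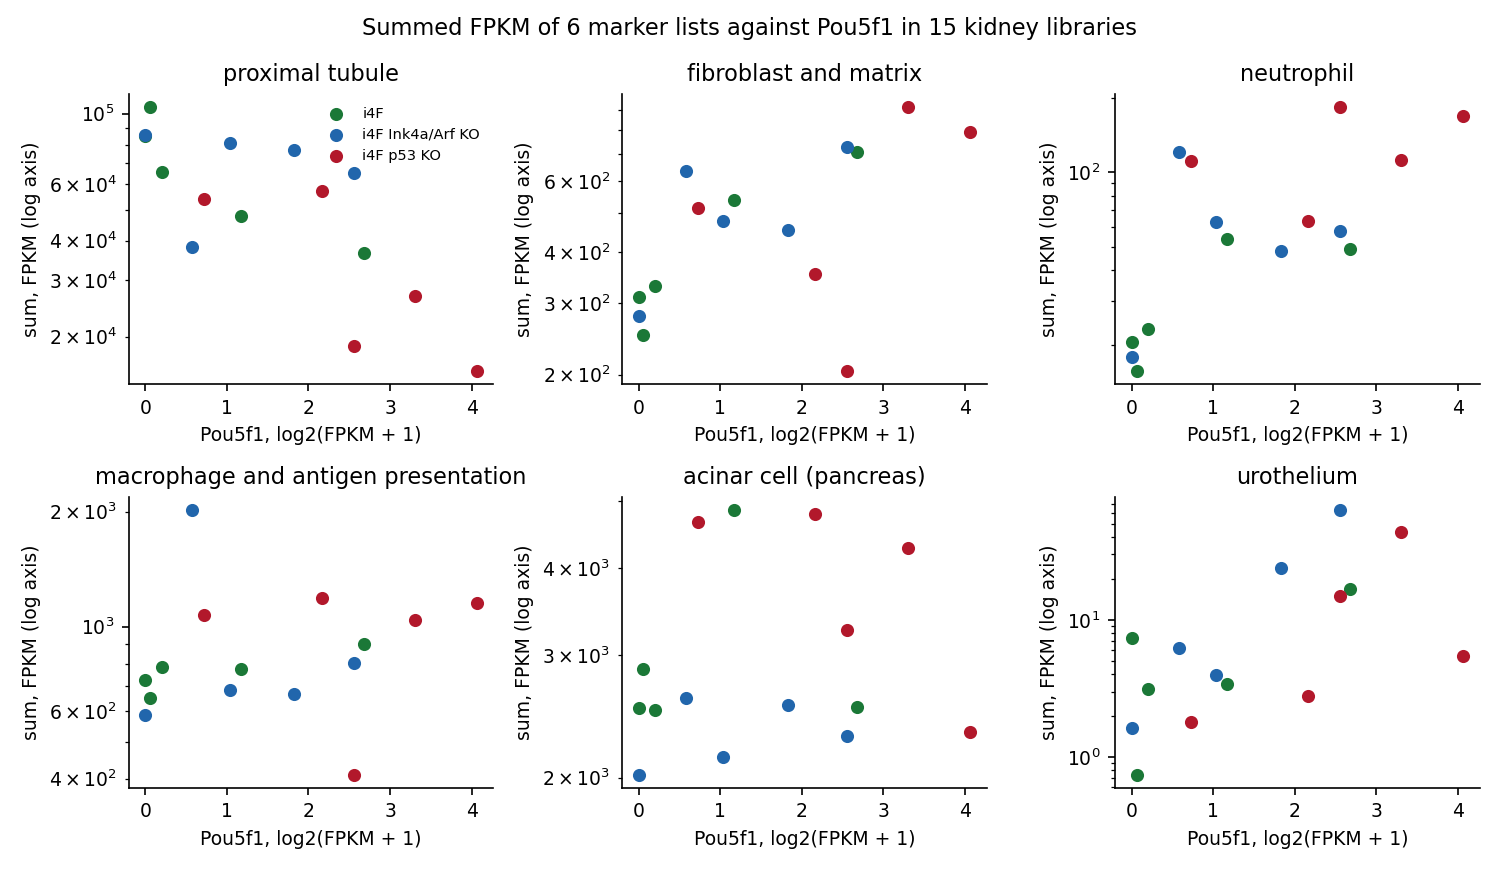
Summed FPKM (log axis) of 6 marker lists in each kidney library, against log2(Pou5f1 FPKM + 1) and coloured by genotype. The neutrophil sum has a higher median in the high class (62.7 against 21.9 FPKM) and the proximal tubule sum a lower one (47860 against 75210 FPKM), and all sums overlap between the classes. These medians pool the genotypes, which the classes hold unequally. In i4F, i4F Ink4a/Arf KO and i4F p53 KO the neutrophil medians are 23.1, 57.7 and 112 FPKM. The proximal tubule medians are 65427, 76932 and 26898 FPKM.

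Snord83b (chr15:80078498-80078591) is a small nucleolar RNA. It was listed at 0 in all 9 high kidneys and had a median of 95.4 FPKM in the low class, where its highest value was 103 FPKM and its lowest 0. It reached 1 FPKM in 5 low kidneys and no high one, so it passed the filter through the low class alone. It did not pass either fit, no p-value is given for it, and no fold is given against values listed at 0. The gene lies within the span of Rpl3 (chr15:80077791-80091868) on the same strand, and how reads were assigned between them was not tested.

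How far differences between genotypes overlap with the level of Pou5f1 was asked by fitting both together. Without Pou5f1 in the fit 32 genes (0.258%) differed between i4F p53 KO and i4F kidneys, and with it 4 (0.0322%), all of them among the 32. The 4 were Trp53, Ccng1, Xaf1 and AA465934, the last 2 named after their values were seen. All 4 lie on chromosome 11. Trp53 is at chr11:69580359-69591873, Xaf1 at chr11:72301629-72313733, AA465934 at chr11:83291699-83294632 and Ccng1 at chr11:40748552-40755311. Whether position near the missing gene bears on these differences was not tested. Trp53 went from -1.14 to -1.46 (log2 difference, p53 KO minus i4F; limma adjusted p = 0.000179 with Pou5f1) and Ccng1, a p53 target, from -1.13 to -0.91 (limma adjusted p = 0.0117). Xaf1, a pro-apoptotic interferon-induced gene, went from 1.36 to 1.21 (limma adjusted p = 0.0185), and AA465934 from 2.87 to 2.73 (limma adjusted p = 0.00839). Of the 32 differences 25 came nearer to 0, at a median of 85.2% of their former size, while standard errors grew to a median of 115%. Only 2 of the 32 genes were called on the slope with Pou5f1.

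The same held for the pair of knockouts. Between i4F p53 KO and i4F Ink4a/Arf KO, 33 genes (0.266%) differed without Pou5f1 and 6 (0.0483%) with it, of which 5 were among the 33. Between i4F Ink4a/Arf KO and i4F no gene differed in either fit (0%), with 398 (3.2%) and 571 genes (4.59%) at an unadjusted limma p under 0.05. These comparisons share libraries, so they are not independent of each other.

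Slopes were compared between genotypes by testing the difference itself. None of 12427 genes passed in any of the 3 pairs of genotypes (0%), with 507 (4.08%), 440 (3.54%) and 156 (1.26%) genes at an unadjusted limma p under 0.05 for p53 KO minus i4F, Ink4a/Arf KO minus i4F and p53 KO minus Ink4a/Arf KO. Within a single genotype the fit called 14 genes (0.113%) in i4F p53 KO and none in the other 2 genotypes (0% of genes tested). With 5 libraries a genotype, these values do not show that slopes are alike.

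**Figure D5:**
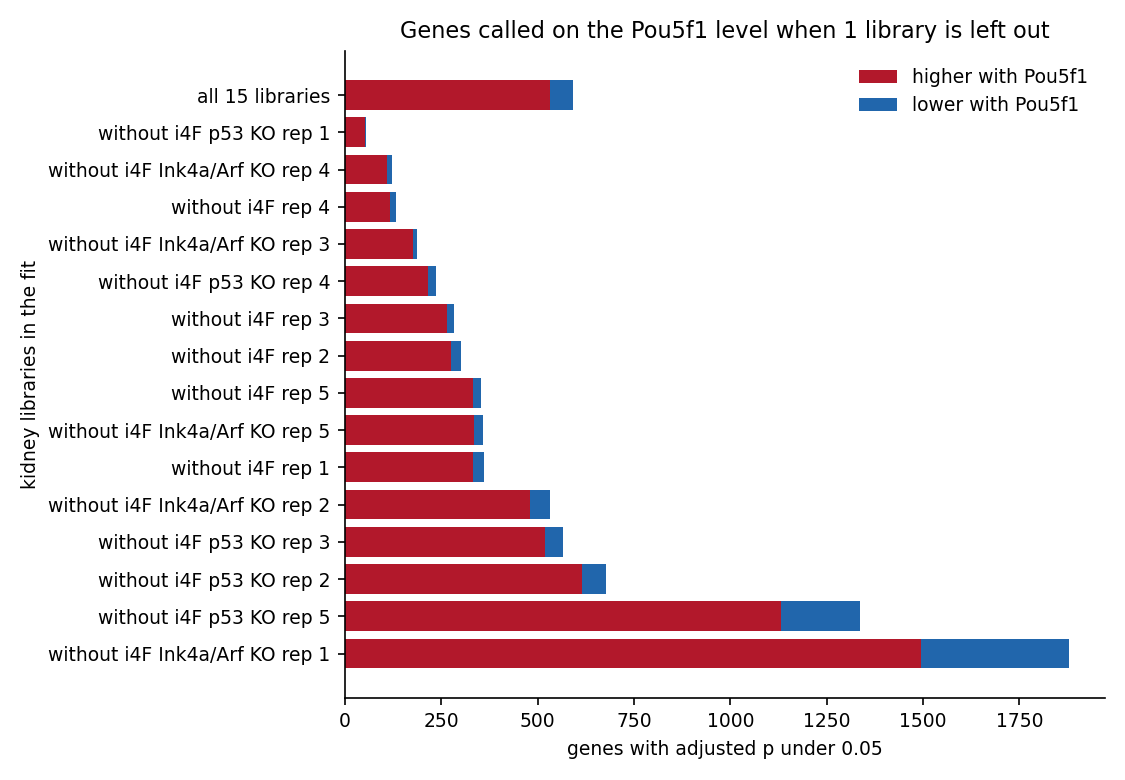
Number of genes whose slope on log2(Pou5f1 + 1) passed an adjusted p under 0.05 after leaving out each kidney library in turn, as bars split into genes higher and lower with Pou5f1, below the bar of all 15 libraries (591). Counts run from 54 without i4F p53 KO replicate 1 to 1878 without i4F Ink4a/Arf KO replicate 1.

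The pancreas of the same study gave a look at libraries that the kidney rule did not use. In the 10 pancreas libraries of i4F and i4F Ink4a/Arf KO, Pou5f1 ran from 0 to 1.91 FPKM with a median of 0.740 FPKM. There 2 of 7731 tested genes passed (0.0259%), with Tff1, a secreted mucosal peptide, first, and 96.9% of all slopes were positive, with a median of 0.30. Of the genes called in kidney 322 that rose were tested in pancreas and 320 had positive slopes there, with a median of 0.41, but so did 40 of 42 genes that fell in kidney, with a median of 0.23. None of the 364 passed in pancreas by limma, and 202 had an unadjusted p under 0.05, beside 2782 of all 7731 genes (36%). After median-of-ratios scaling 49 of the 364 had an unadjusted p under 0.05, the median of all pancreas slopes was -0.03, that of genes that rose in kidney 0.09, and that of genes that fell in kidney -0.17. Krt20 had a pancreas slope of 0.83 ± 0.28 (limma adjusted p = 0.124) and Lcn2 one of 1.06 ± 0.55 (limma adjusted p = 0.158); neither passed.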

How the data were processed

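Values are FPKM as the authors deposited them, 1 table for kidney and 1 for pancreas; the labels' protocols describe poly(A) libraries with RNA integrity numbers from 7.4 to 9.4. Tools named in the submitters' processing notes, with no roles or order, are Cufflinks 2.2.1, TopHat2 2.0.10, SAMtools 0.1.19, Bowtie 1.0.0 and FastQC. Because FPKM express a share of a library, a few abundant genes can shift all others; counts did not enter, and no interval or floor rests on them. Values were analysed as log2(FPKM + 1), a scale that understates changes of low genes, with limma 3.58.1 in R 4.3.3 (lmFit, eBayes with a trend). A gene was tested where 5 or more of the libraries fitted reached 1 FPKM; tests were two-sided, and a gene was called where its p, adjusted after Benjamini-Hochberg, was under 0.05. Of 12431 genes that passed in kidney the 4 factors were set aside and 12427 counted. Some low genes, among them Krt20, Itgb4, Uhrf1, Cdc45, Plk1 and Atf3, reached 1 FPKM in 1 low kidney only. They passed the filter mainly through the high class. Genotype was a covariate in both main fits.

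The threshold of 1 FPKM, the members, the 31 gene lists (721 different genes) and the tests were chosen with earlier results of these data known. Genes to name were: Pou5f1, Sox2, Klf4, Myc, Trp53, Cdkn1a, Nanog, Havcr1, Lcn2, Clps and Xist; in each main fit the 10 largest rises and falls among called genes with a mean of at least 2 FPKM in the higher class, filled up by unadjusted p; the 10 highest and 5 lowest partial correlations with Pou5f1; and in each list up to 3 members, those of smallest p in the fit of 2 classes. The text names a part of these. Members named for lists with few calls, genes singled out as not called, the 12 genes whose classes do not overlap, and the genes of the genotype comparison were in part chosen after their values were seen. Gene positions are from GENCODE M21 (GRCm38), and promoters from RefSeq (GRCm38.p6). Pancreas libraries labelled p53 KO were left out, since earlier results set them apart. The procedure was tested on simulated data. Alternatives were another pseudocount, filters, scalings, array weights, robust variances, covariates, subsets of libraries and leaving out each library in turn. A few list members are not reported here.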

Additional observations from a re-analysis of the deposited data

Results flagged for a closer look

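In groups of 5 libraries, a value was marked where the gap between the highest or lowest library and the next, divided by the range of the group, exceeded Dixon's critical value. Chance marks about 1 in 20 groups; here 7 of 216 groups of named genes were marked, and no explanation was tested. Of these 3 fell on i4F replicate 4, the i4F kidney with the most Pou5f1: it was highest of its genotype for Mcm7 (13.0 FPKM), Trp53 (20.3 FPKM) and Sprr2f (1.87 FPKM). Cdc45 was lowest in i4F Ink4a/Arf KO replicate 4, which is listed at 0 for Pou5f1, at 0.632 FPKM. Lpin1 was lowest in i4F Ink4a/Arf KO replicate 3, the kidney of that genotype with the most Pou5f1, at 8.87 FPKM. Snord83b reached 88.8 FPKM in i4F Ink4a/Arf KO replicate 1 and 102 FPKM in i4F p53 KO replicate 2 and was listed at 0 in the other libraries of both genotypes.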

How the results depend on the processing

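Each fit of a named gene was paired with each other setting tried. Of these pairs 1867 kept direction and side of the threshold, and 515 kept direction and no longer passed. Another 66 newly passed and 1 reversed, the slope of Trp53 without genotype in the fit (-0.13). The kept pairs include genes that stayed on the side that did not pass, such as those of the fit of 2 classes, which called no gene. Causes were not tested. The 591 genes called on the slope became 297 with a filter of 5 FPKM (fewer genes tested), 4190 with array weights, 319 with Xist as a covariate, 2251 without genotype, 54 without libraries above 100 FPKM of Clps and 75 in the 10 libraries without i4F p53 KO; settings added after seeing the data gave 2 in i4F p53 KO alone, 27 without the 3 libraries farthest from their genotype mean of Pou5f1 and 142 in males without high Clps. Leaving out 1 library gave 54 to 1878: 54 without i4F p53 KO replicate 1, 237 without its replicate 4 and 1337 without its replicate 5; 1878, 188, 121 and 359 without i4F Ink4a/Arf KO replicates 1, 3, 4 and 5; and 360, 301, 283, 133 and 353 without i4F replicates 1 to 5. The 0 genes between classes became 4 with a pseudocount of 0.1, 3396 with array weights, 4 with Clps as a covariate, 1 in males, 2 without genotype and 1618 with the mean of the 4 factors in place of the class, and 0 to 3 without 1 library (3 without i4F p53 KO replicate 3, 1 without i4F Ink4a/Arf KO replicate 4).

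With Pou5f1 in the fit, the 4 genes between i4F p53 KO and i4F became 12 with the class in place of the level and 1 to 20 without 1 library (1 without i4F replicate 4, 20 without i4F p53 KO replicate 2). The 6 genes between the knockouts became 10 with a pseudocount of 0.1, 14 with the class, and 4 to 69 without 1 library (69 without i4F p53 KO replicate 2, 24 without i4F replicate 5, 12 and 10 without i4F Ink4a/Arf KO replicates 1 and 5). Between i4F Ink4a/Arf KO and i4F the count was 0 to 0. For differences of slopes it was 0 to 12 between i4F p53 KO and i4F (12 without i4F p53 KO replicate 2, 1 each without its replicates 3 and 5) and 0 to 0 for the other pairs. None of the kidney genes passed in pancreas on leaving out any library (0 to 0), and with all 15 pancreas libraries 412 passed in their kidney direction, which include the separate p53 KO cluster.

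Replicate numbers were not taken to pair the kidneys, since the labels do not say that they do and not every pair was over 0.1: deviations from the group means correlated over 0.1 in 3 of 5 same-numbered pairs of i4F p53 KO and i4F (-0.0789 to 0.291), 0 of 5 of i4F Ink4a/Arf KO and i4F and 1 of 5 of the knockouts. With the replicate number as a block the fit called 218 slopes (209 shared with the 591), 0 genes between classes, 1 gene between i4F p53 KO and i4F with Pou5f1, 4 between the knockouts, and 1 kidney gene in pancreas.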
